A study of Mus musculus with 6 samples.

Results

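Hepatocellular carcinoma of 9-month-old male mice was compared with hepatocellular carcinoma of 15-month-old female mice, gene by gene, in bulk RNA sequencing of liver. The mice carried a Hras12V transgene, an activated form of the RAS oncogene. Each tumour was 1 library, so the differences are described without a replicate check. Members were the genes with an FPKM (fragments normalised for gene length and library size) of at least 5 in either tumour, which 5524 of the 34745 genes in the table reached. Left out by name were 224 genes named Gm, 99 named Rik, 10 named mt- and 7 antisense genes whose names end in os, and 16 genes with clone names that the annotation calls Gm or Rik. This left 5168 members, of which 4178 reached the limit in both tumours, 582 in the male tumour alone and 408 in the female tumour alone. Nearest to the limit, Dusp22 was inside with 5.001 FPKM in the male tumour against 2.91 in the female tumour. Tbc1d23 was just outside with 4.9996 and 4.68 FPKM.

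The series holds 6 libraries, 1 for each sex of normal liver from wild-type mice, precancerous liver from Hras12V transgenic mice, and carcinoma from Hras12V transgenic mice. All mice were C57BL/6. All male libraries were from 9-month-old mice and all female libraries from 15-month-old mice, and sex and age therefore cannot be told apart. The sources used here do not give the promoter of the transgene, whether a library holds 1 mouse or several, or whether a tumour shares its mouse with a precancerous library. The male tumour library had 7347064 counts and the female one 18434508; the other male libraries had 5996585 and 6891837, and the other female ones 17655912 and 15047022.

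The male columns also differed from the female ones in genes that lie opposite to others. Of the genes left out by name, 107 had over 50% of their exonic sequence under an exon of the opposite strand and an FPKM of at least 5 in any library. They had a median FPKM of 10.3, 9.35 and 8.82 in male normal liver, precancerous liver and tumour, and of 0 in each female library. A male value of a gene with an opposite-strand neighbour may therefore hold reads of that neighbour. The share of exonic sequence under an opposite-strand exon is given below where it passed 10%.

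As background, hepatocytes divide their work along the path of blood through the liver lobule. Cells around the central vein take up ammonia as glutamine, make bile acids and carry drug-metabolising cytochromes, under Wnt and beta-catenin signalling, whereas cells around the portal vein run gluconeogenesis and the urea cycle. The liver is also among the most sexually dimorphic organs of the mouse: the sex-specific pattern of growth hormone release keeps sets of Mup, Cyp and Sult genes high in 1 sex. Liver tumours often regain genes of the fetal liver, such as Afp, H19 and Igf2.

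The tumours were alike in most genes. Of the 5168 members, 4846 (93.8%) were under 2-fold apart and 3935 (76.1%) under 1.5-fold apart on the log2(FPKM + 1) scale. On that scale 200 members (3.87%) were 2-fold or more higher in the male tumour, and 122 members (2.36%) were so in the female tumour. The male count was 98 among the 582 members that reached the limit in the male tumour alone, and the female count was 55 among the 408 that reached it in the female tumour alone. Such members could be apart in 1 direction only. Among the 4178 members at the limit in both tumours, 102 were higher in the male tumour and 67 were higher in the female tumour. The same 5168 genes gave 179 (3.46%) male-higher and 141 (2.73%) female-higher genes in precancerous liver, and 240 (4.64%) and 201 (3.89%) in normal liver.

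**Figure D1:**
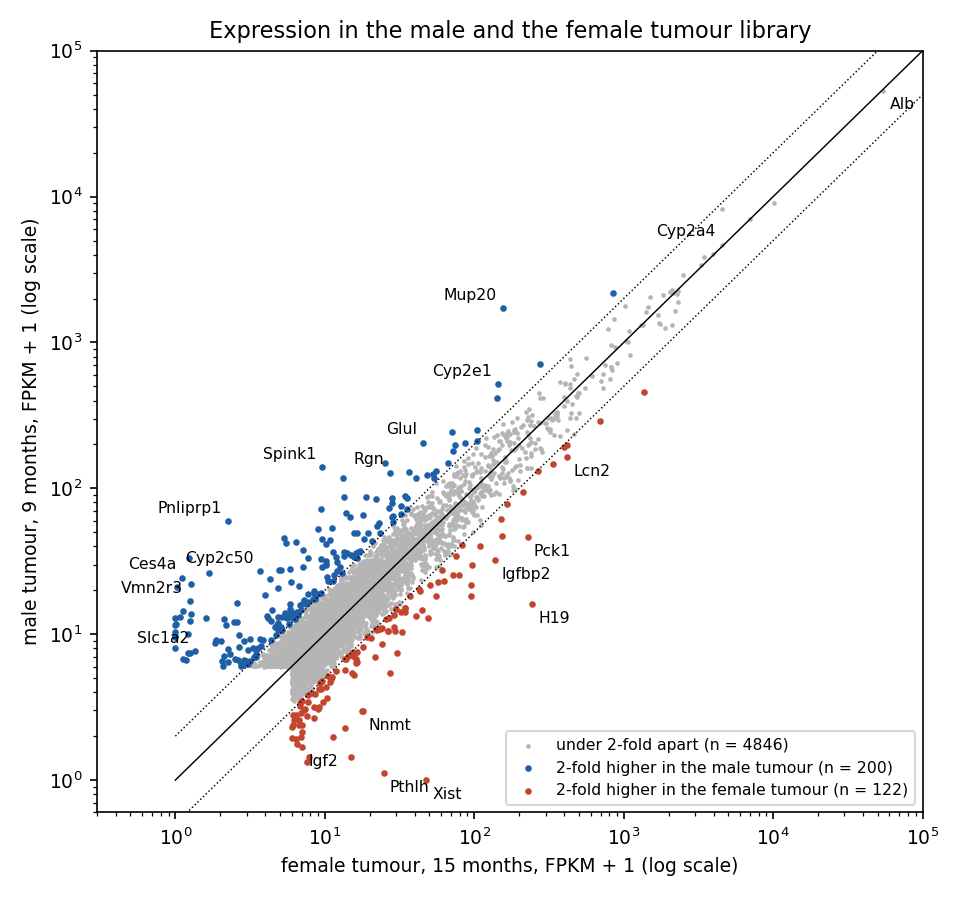
FPKM + 1 of the 5168 members in the female tumour (x axis) and the male tumour (y axis), both on log scales, 1 point per gene, with the line of equal level and dotted lines at 2-fold. Most genes lie between the dotted lines, with 200 above them and 122 below; Alb and Cyp2a4 lie on the line of equal level.

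The median difference of male minus female, in log2(FPKM + 1), was 0.08 over all members in the tumours. Scaling by TMM factors (trimmed mean of M-values, from edgeR) lowers each tumour difference by up to 0.12 and moves that median to -0.03. The split of 200 to 122 then becomes 165 to 160, so the excess of male-higher members depends on the scaling. The difference has a median absolute value of 0.34 in the tumours, 0.32 in precancerous liver and 0.36 in normal liver. Across members, levels correlated between the sexes with Pearson's r = 0.914 in tumour, 0.928 in precancerous liver and 0.897 in normal liver, as a description over genes that share library depth and gene length.

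The most abundant liver transcripts were close to equal. Alb, which encodes albumin, had 53377 FPKM in the male tumour against 54600 in the female tumour. Trf, the plasma iron carrier transferrin, had 6972 and 6967 FPKM, and Hnf4a, the hepatocyte transcription factor, had 83.7 and 82.3. Apoa1, the main protein of high-density lipoprotein, differed more, with 8192 and 4528 FPKM, a difference of 0.86. All 14 hepatocyte markers were members, their median difference was 0.01, and Cyp2e1 was the only one 2-fold apart. None of the 24 cholesterol synthesis genes, all of them members, was 2-fold apart in either direction; Sqle, the squalene epoxidase of this pathway, had 36.5 and 33.8 FPKM in the male and female tumours.

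Genes of pericentral hepatocytes were higher in the male tumour. Of 17 listed genes in the table, 11 were members and 7 of the 11 had a level in the male tumour 2-fold or more above the female one (Glul, Cyp2e1, Rgn, Oat, Slc1a2, Lect2 and Cyp7a1), with 0 in the other direction. The median difference over the 11 was 1.60, against -0.27 in precancerous liver, -0.18 in normal liver and 0.08 over all members in the tumours. Of the 9 that reached the limit in both tumours, 5 were 2-fold higher in the male tumour. Cyp1a2, Cyp27a1, Cyp2c29 and Gulo were under 2-fold apart, so the list did not move as a block.

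Glul encodes glutamine synthetase and marks the hepatocytes next to the central vein. Its FPKM was 304, 235 and 205 in male normal liver, precancerous liver and tumour, and 390, 306 and 44.5 in the female libraries in the same order. The male tumour stayed near the other libraries and the female tumour was the low one. The male tumour was 4.60-fold above the female tumour, with a 95% counting interval of 4.40 to 4.81; such intervals cover counting error alone.

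Slc1a2, a glutamate transporter of the same cells, followed the same order. It had 5.61, 8.31 and 6.67 FPKM in the male libraries and 7.34, 7.64 and 0.36 in the female ones, so the female tumour alone was low. The tumour ratio was 18.5 (interval 15.0 to 23.02). The glutamine synthetase pseudogene Glns-ps1, which may share reads with Glul, had 8.03 FPKM in the male tumour against 1.02 in the female tumour.

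Cyp2e1, Rgn and Oat were low in both tumours and lowest in the female one. Cyp2e1, the ethanol-oxidising cytochrome, had 3425, 2914 and 517 FPKM in the male libraries and 4693, 4334 and 144 in the female ones. Rgn (regucalcin, a calcium-binding lactonase) had 825, 632 and 127 FPKM against 637, 568 and 26.4. Oat, the ornithine aminotransferase of mitochondria, had 84.7 FPKM in the male tumour against 27.3 in the female one, from 567 and 576 in normal liver. Outside the tumours the male minus female difference of Cyp2e1 ran the other way. edgeR's quasi-likelihood test on the 4 non-tumour libraries gave a log2 fold change of -0.60 (male minus female, adjusted p = 0.0337). That test had 1 residual degree of freedom and called 18% of all tested genes higher in females. Sex, age, depth and the counting of strands differ together in it.

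Some other cytochromes and transporters of hepatocytes were also lowest in the female tumour. Cyp2c50 had 289, 179 and 26.1 FPKM in the male libraries and 275, 161 and 2.71 in the female ones. Cyp2c54 had 11.9 FPKM in the male tumour against 0.61 in the female tumour, and Cyp2c37 had 51.5 and 7.97. These 3 belong to a gene family whose copies may share reads, so the single values are uncertain. Slc10a5, a member of the bile acid transporter family, stayed at 15.3 FPKM in the male tumour, from 22.3 in precancerous liver, and was at 1.59 in the female tumour, from 16.1. Slco1b2, which takes up bile acids and drugs from blood, had 43.3 and 9.79 FPKM in the tumours, from 195 and 143 in precancerous liver. Cyp7a1, the rate-limiting enzyme of bile acid synthesis, had 17.9, 57.6 and 10.6 FPKM in the male libraries and 47.6, 69.9 and 1.20 in the female ones. The female tumour was the lowest library for each of these genes.

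Pck1 and G6pc of gluconeogenesis and 3 other periportal genes were higher in the female tumour. All 18 listed periportal genes were members and reached the limit in both tumours; 5 (Pck1, Sds, G6pc, Ass1 and Hal) were at least 2-fold higher in the female tumour and 0 in the male tumour. Of the 18, 13 were below 0 and 5 above, and the median difference was -0.51, against 0.14 in precancerous liver and -0.39 in normal liver. Arg1, the last enzyme of the urea cycle, was near equal, with 673 FPKM in the male tumour against 822 in the female one, and so was Cyp2f2, a cytochrome of periportal cells, with 58.3 and 57.9; Gm15883 covers 13.5% of the exonic sequence of Cyp2f2.

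Pck1 makes phosphoenolpyruvate and G6pc releases free glucose, the first committed and the last step of gluconeogenesis. Pck1 had 540, 392 and 45.2 FPKM in male normal liver, precancerous liver and tumour, and 781, 504 and 226 in the female libraries. G6pc had 213, 94.9 and 11.9 FPKM against 183, 86.1 and 48.1. Both were lower in each tumour than in its precancerous liver, and the male tumour was the lowest library for both. The female tumour was 5.0-fold (interval 4.77 to 5.24) above the male one for Pck1 and 4.05-fold (3.51 to 4.68) for G6pc.

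Enzymes of amino acid breakdown that feed gluconeogenesis showed the same order. Sds, the serine dehydratase, had 105, 91.4 and 20.7 FPKM in the male libraries and 162, 109 and 93.7 in the female ones; Plbd2 covers 29.6% of its exonic sequence on the opposite strand. Got1, the cytosolic aspartate aminotransferase, had 77.1, 80.3 and 17.2 FPKM against 93.8, 60.6 and 54.2. In both genes the male tumour was low and the female tumour was near its precancerous liver. Ass1, which makes argininosuccinate in the urea cycle, was lower in both tumours, with 60.3 and 149 FPKM. Over the wider list of 33 urea cycle and amino acid genes, all members, 4 were 2-fold higher in the female tumour and 1, Otc, in the male tumour, with 36.4 and 16.3 FPKM; under TMM scaling Otc is under 2-fold and the counts are 5 and 0.

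The start regions of 4 of these genes are shown because the genes differed in opposite directions between the tumours: Glul and Cyp2e1 were higher in the male tumour, Pck1 and G6pc in the female one. Each sequence is the 250 bases before the gene start in RefSeq (GRCm38.p6, all on the plus strand), at chr1:153899679-153899928 for Glul, chr7:140763569-140763818 for Cyp2e1, chr2:173152823-173153072 for Pck1 and chr11:101367466-101367715 for G6pc. Capitals mark matches, on either strand, to CTTTGA (the core of TCF/LEF sites, the factors of Wnt signalling), to ACGTCA (the core of the cAMP response element) and to CAAAACA (the core of the insulin response element).
Glul: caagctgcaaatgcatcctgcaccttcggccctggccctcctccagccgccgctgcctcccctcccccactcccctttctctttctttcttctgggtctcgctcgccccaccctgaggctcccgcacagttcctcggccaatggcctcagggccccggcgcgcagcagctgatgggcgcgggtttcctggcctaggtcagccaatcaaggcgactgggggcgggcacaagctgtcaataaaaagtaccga
Cyp2e1: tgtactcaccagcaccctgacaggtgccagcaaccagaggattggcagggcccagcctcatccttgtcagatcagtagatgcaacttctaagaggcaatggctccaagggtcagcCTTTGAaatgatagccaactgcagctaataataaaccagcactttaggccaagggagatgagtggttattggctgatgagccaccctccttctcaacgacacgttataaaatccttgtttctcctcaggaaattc
Pck1: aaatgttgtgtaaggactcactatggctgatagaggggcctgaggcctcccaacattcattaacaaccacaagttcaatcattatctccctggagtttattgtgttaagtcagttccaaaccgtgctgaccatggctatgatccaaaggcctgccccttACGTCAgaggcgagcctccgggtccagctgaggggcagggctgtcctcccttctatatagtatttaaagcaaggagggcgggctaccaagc
G6pc: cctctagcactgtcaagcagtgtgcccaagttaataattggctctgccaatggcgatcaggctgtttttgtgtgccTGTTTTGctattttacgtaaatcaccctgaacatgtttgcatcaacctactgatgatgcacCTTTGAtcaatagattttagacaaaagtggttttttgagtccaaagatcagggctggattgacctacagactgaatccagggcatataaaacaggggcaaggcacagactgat
The 1 capital run in the Pck1 sequence is the cAMP response core, 91 bases before the start. That of Cyp2e1 is the TCF/LEF core, 135 bases before the start. G6pc holds an insulin response core on the other strand, 174 bases before the start, and a TCF/LEF core 113 bases before it; no match overlapped another. Glul holds none of the 3 in this window. Of all 32851 RefSeq windows of this length, 13.8% hold the TCF/LEF core, 6.5% the cAMP core and 5.6% the insulin core. A RefSeq window was found by symbol for 3930 of the 5168 members. The TCF/LEF core was in 5 of the 8 pericentral members with a window and in 4 of the 13 periportal ones. The cAMP core was in 0 of the 8 and 1 of the 13, and the insulin core in 1 of the 8 and 1 of the 13. A gene counted here if any of its windows held the core, whereas the 13.8%, 6.5% and 5.6% are shares of single windows. These shares are therefore not directly comparable, and they describe letters and not binding.

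**Figure D2:**
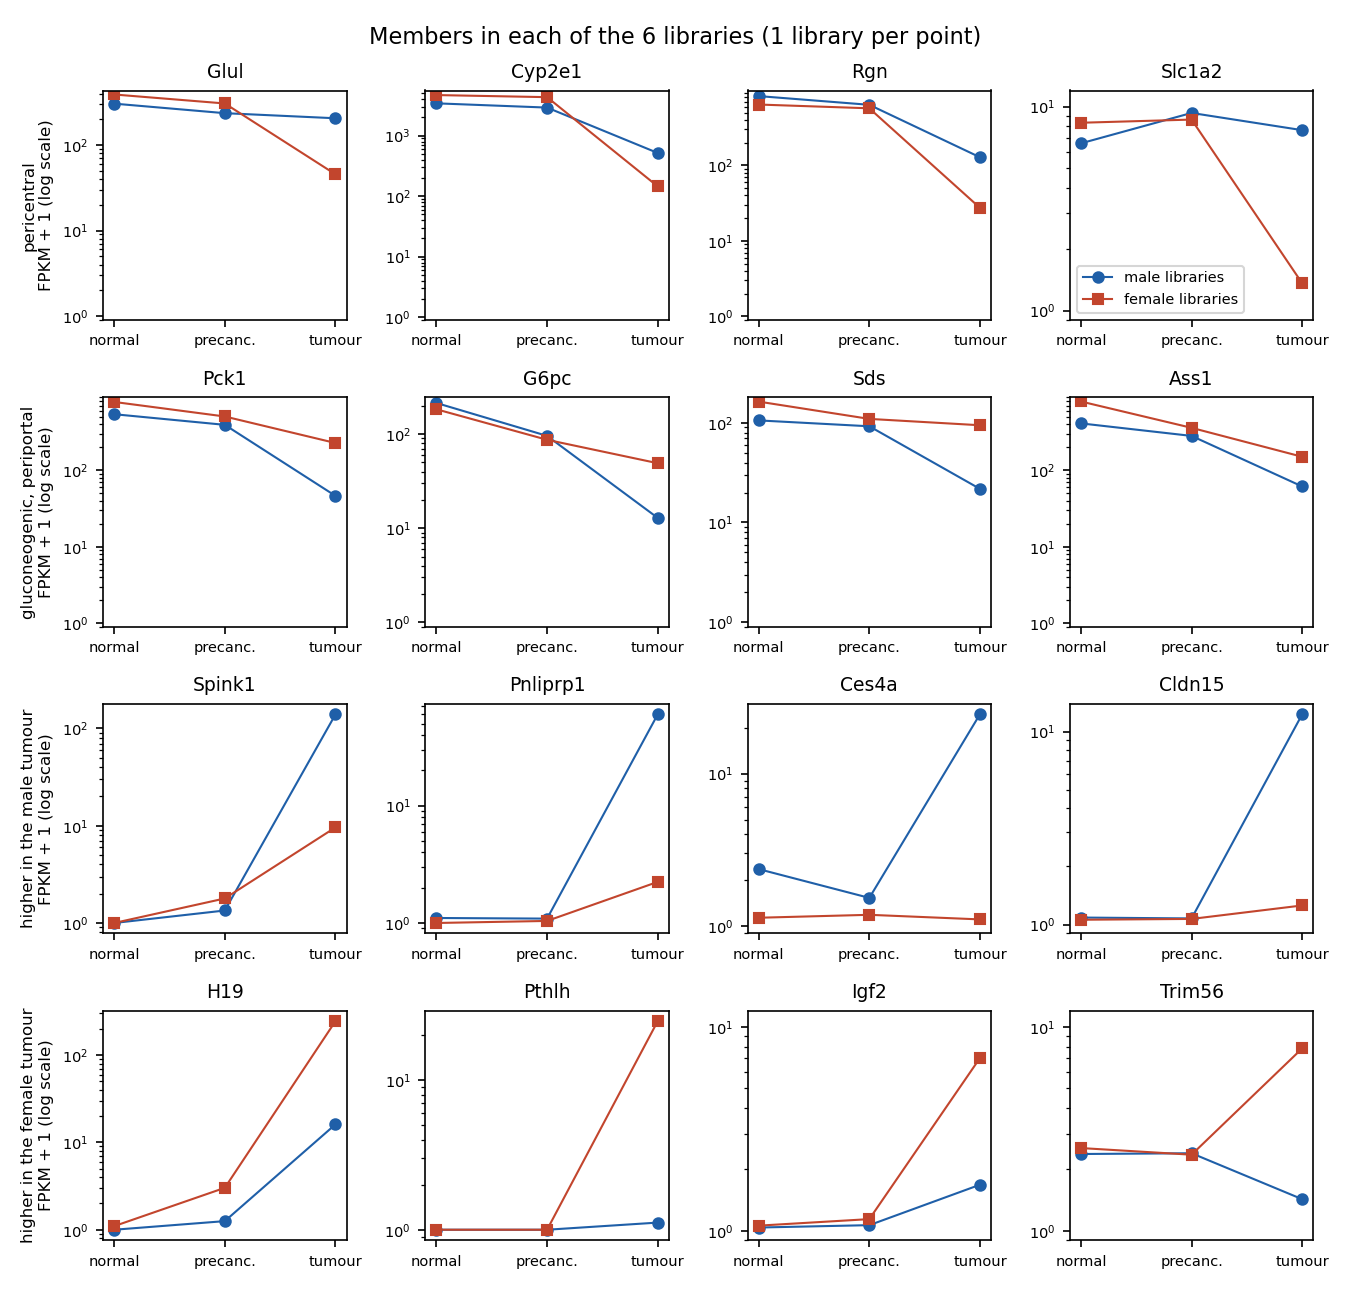
FPKM + 1 (log scale) of 16 members in normal liver, precancerous liver and tumour, with 1 library per point and lines that join libraries of the same sex (blue circles male, red squares female). In the top row the female tumour is lowest, in the second row the male tumour, and in the lower rows 1 tumour stands above the other libraries: Spink1 reaches 138 FPKM in the male tumour and H19 244 in the female tumour.

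H19, Igf2 and a few other fetal liver and tumour markers were higher in the female tumour. Of 24 listed fetal liver and tumour markers, 15 were members; 5 (H19, Igf2, Slpi, Lcn2 and Ly6d) were at least 2-fold higher in the female tumour and 0 in the male tumour. The median difference of the 15 was -0.64, against -0.76 in precancerous and -0.03 in normal liver, and 4 of the 13 that reached the limit in both tumours were among the 5. The classic markers were not part of the difference: Afp (alpha-fetoprotein) had 93.1 FPKM in the male tumour against 125 in the female one, and Gpc3 (glypican-3) had 99.5 and 118.

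H19 is an imprinted non-coding RNA (chr7:142575529-142578143 in the table) that neighbours Igf2, the gene of the fetal insulin-like growth factor. H19 had 0, 0.26 and 15.1 FPKM in the male libraries and 0.10, 2.02 and 244 in the female ones. Both tumours were above all other libraries, and the female tumour was 16.2-fold (14.9 to 17.5) above the male one. Igf2 had 0.04, 0.07 and 0.68 FPKM against 0.06, 0.14 and 6.04; 62.8% of its exonic sequence overlaps Gm49394 on the same strand, so part of this value may belong to that gene. The imprinted list had 4 members: 2, H19 and Igf2, were 2-fold higher in the female tumour, and the differences of 3 were below 0 and of 1 above 0. Of the other listed imprinted genes, Dlk1, Meg3 and Grb10 stayed under the limit of 5 FPKM in both tumours. They had 0.43, 1.72 and 3.35 in the female tumour and 0.06, 0.88 and 2.24 in the male one.

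The rest of the insulin-like growth factor axis also differed. Of 10 members, 4 (Igf2, Igfbp2, Igfals and Irs2) were 2-fold higher in the female tumour and 0 in the male tumour, with a median of -0.71; of the 7 that reached the limit in both tumours, 1 was, Igfbp2. The medians in precancerous and normal liver were -0.58 and -0.74, so this list was higher in female libraries throughout. Igfbp2, a binding protein of the factor, had 67.2, 36.9 and 31.2 FPKM in the male libraries and 212, 74.2 and 137 in the female ones. Igfbp1 was high in both tumours, with 1327 and 2101 FPKM, from 62.5 and 166 in precancerous liver.

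Pthlh gave the largest difference in the female direction among members whose other pairs were near equal. It encodes parathyroid hormone-related protein, a secreted factor known from the high blood calcium of cancer patients. Pthlh was at 0 in both normal and both precancerous libraries, at 0.12 FPKM (2 counts) in the male tumour and at 23.8 FPKM (1027 counts) in the female tumour. The tumour ratio was 205, with a counting interval of 56.5 to 1692.

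Further genes were high in the female tumour alone. Trim56, a ubiquitin ligase of innate immunity, had 6.85 FPKM in the female tumour, 0.43 in the male tumour and between 1.36 and 1.55 in the other 4 libraries. Zfp37, a zinc finger gene, had 5.51 and 0.77 FPKM in the female and male tumours. Nnmt, which methylates nicotinamide, differed because the male tumour was low: it had 45.4, 45.4 and 1.97 FPKM in the male libraries and 35.2, 31.7 and 16.8 in the female ones.

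Lcn2 and Slpi encode secreted defence proteins that many injured epithelia make. Lcn2 had 162 FPKM in the male tumour against 419 in the female one, from 35.4 and 48.8 in precancerous liver. Slpi had 24.3 and 71.5 FPKM, from 1.23 and 3.66. Both genes were higher in each tumour than in its precancerous liver.

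Several genes close to 0 in normal liver were high in the male tumour. Pnliprp1, a pancreatic lipase relative, had 0.10, 0.09 and 58.8 FPKM in the male libraries and 0, 0.04 and 1.24 in the female ones. Spink1, a trypsin inhibitor, had 0, 0.34 and 138 FPKM against 0, 0.79 and 8.61. Both genes were above their precancerous liver in both tumours, and the male tumour was 47.5-fold (34.1 to 68.0) higher for Pnliprp1 and 16.1-fold (12.4 to 21.1) higher for Spink1. Pnliprp1 and Spink1 are both known from the exocrine pancreas. The 10 pancreatic acinar markers summed to 43.1 FPKM in the male tumour against 26.6 in the female tumour, nearly all of it Cela1, the only member, with 42.4 and 25.9; Cela1 also had 28.7 FPKM in male normal liver.

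For 4 other genes the male tumour alone stood above the rest. Ces4a, a carboxylesterase, had 23.4 FPKM there, 1.37 in male normal liver and at most 0.54 in the other libraries. Vmn2r3, named as a vomeronasal receptor, had 15.8 FPKM in the male tumour against 0.25 in the female tumour, and was at most 0.06 in the other libraries. Cldn15, a tight junction protein of the intestine, had 11.3 FPKM in the male tumour and at most 0.26 in any other library. Ly6k had 13.5 FPKM in the male tumour against 0.12 in the female tumour, with 47.6% of its exonic sequence under Gm17189. The counts behind these male values were 419, 333, 316 and 90.

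Krt23, a keratin of epithelia under stress, had 26.6 FPKM in the male tumour against 3.95 in the female one, and was between 0.32 and 2.86 in the other libraries. S100a6 had 5.78 and 1.52 FPKM in the tumours. Ubd, an inflammation-induced ubiquitin-like protein, had 30.7 and 9.26. Each of these 3 genes was above its precancerous liver in both tumours.

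The members that were 2-fold apart in the tumours while under 1.5-fold apart in both other pairs numbered 30 in the male direction and 34 in the female direction. Of the 30 male-higher ones, 18 had a female tumour at least 2-fold below its precancerous liver, 8 had a male tumour at least 2-fold above its own, and 4 had neither. Of the 34 female-higher ones, 18 had a female tumour at least 2-fold above its precancerous liver, 8 had a male tumour at least 2-fold below its own, and 8 had neither. In 10 of the 30 both tumours were at least 2-fold below their precancerous liver and in 5 both were above it; in 8 of the 34 both were above it and in 1 both were below. Of these 64 members, 28 reached the limit in both tumours.

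Members 2-fold apart between male and female normal liver differed less in the tumours. Of the 240 members 2-fold higher in male normal liver, 134 kept a 2-fold difference in precancerous liver and 109 in the tumours, 73 were under 1.5-fold apart in the tumours and 4 were 2-fold apart the other way. Their median difference, chosen in normal liver, was 1.30 there, 1.07 in precancerous liver and 0.86 in the tumours. Of the 201 members 2-fold higher in female normal liver, 84 kept the difference in precancerous liver and 42 in the tumours, 89 were under 1.5-fold apart and 11 were reversed, with medians of -1.34, -0.88 and -0.56. A smaller value outside the library pair used for choosing them is partly built in, and how much of it was not tested.

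Of the listed male-biased liver genes, 20 were members, 6 were 2-fold higher in the male tumour against 0 in the female tumour (4 and 0 of the 16 at the limit in both). Their median difference was 3.75 in normal liver, 1.60 in precancerous liver and 0.69 in the tumours. Cyp2c69 was on this list but higher in female normal liver, with 339 against 0.47 FPKM. The Mup genes encode urinary pheromone carriers and belong to a family whose copies may share reads. Mup7 had 8097, 1804 and 20.0 FPKM in the male libraries and 1.06, 0.82 and 0.03 in the female ones. Mup20 stayed high in males, with 5027, 1748 and 1722 FPKM, and was at 25.3, 20.7 and 156 in females. Cyp4a12a, a fatty acid hydroxylase, had 139, 26.2 and 21.2 FPKM against 0.09, 0.08 and 0.27.

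The listed female-biased liver genes also differed less in the tumours than in normal liver. Of 21 members, 4 were 2-fold higher in the female tumour and 3 in the male tumour (0 and 1 of the 13 at the limit in both), and the median went from -3.36 in normal liver to -1.56 in precancerous liver and -0.29 in the tumours. Cyp2a4, a steroid hydroxylase, had 0.96, 144 and 4678 FPKM in the male libraries and 434, 1564 and 4556 in the female ones. Cyp2b9 had 0.44, 105 and 162 FPKM against 381, 309 and 159. For both genes male levels were higher in each step towards the tumour, and the difference went from -7.80 to 0.04 for Cyp2a4 and from -8.05 to 0.03 for Cyp2b9. Sult2a2, a sulfotransferase, kept its direction, with 1.29 FPKM in the male tumour against 12.7 in the female one, from 0 and 168 in normal liver. Cyp4a10 had 30.0 and 251 FPKM in male and female normal liver and 12.3 and 3.11 in the tumours, so its order turned. Cyp2a4, Cyp2b9, Sult2a2, Cyp4a10 and Cyp4a12a belong to gene families whose copies may share reads, so their single values are uncertain.

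**Figure D3:**
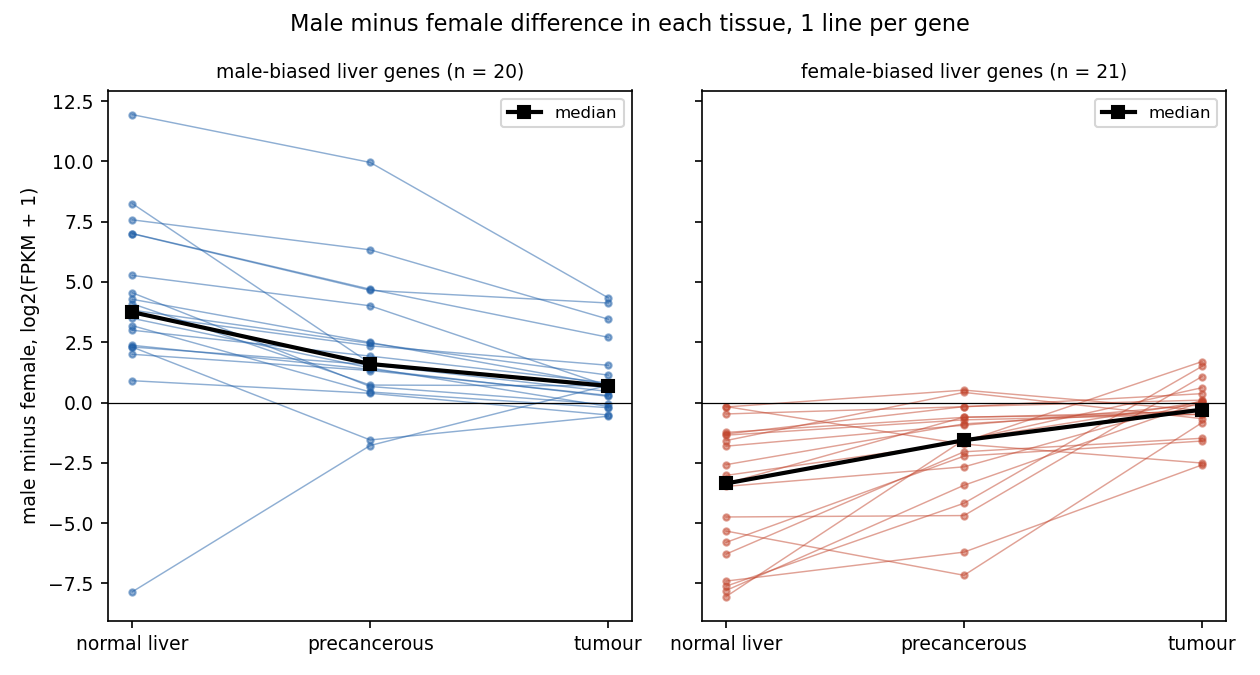
Male minus female difference in log2(FPKM + 1) for the 20 male-biased and 21 female-biased members in normal liver, precancerous liver and tumour, 1 line per gene, with the median in black. The medians run from 3.75 to 0.69 and from -3.36 to -0.29.

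The tumour difference of a member followed its difference in the other tissues in part. Across the 5168 members the tumour difference correlated with that of precancerous liver with Pearson's r = 0.682 (Spearman's rho = 0.746) and with that of normal liver with r = 0.558 (rho = 0.677), while precancerous and normal liver correlated with r = 0.811 (rho = 0.804). These are descriptions over genes within the same 6 libraries, and each pair shares the same gap in depth, age, sex and counting. Of the 200 members higher in the male tumour, 91 were 2-fold higher in males in both other pairs and 36 in 1 of them. Of the 122 higher in the female tumour, 24 were so in both and 31 in 1.

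**Figure D4:**
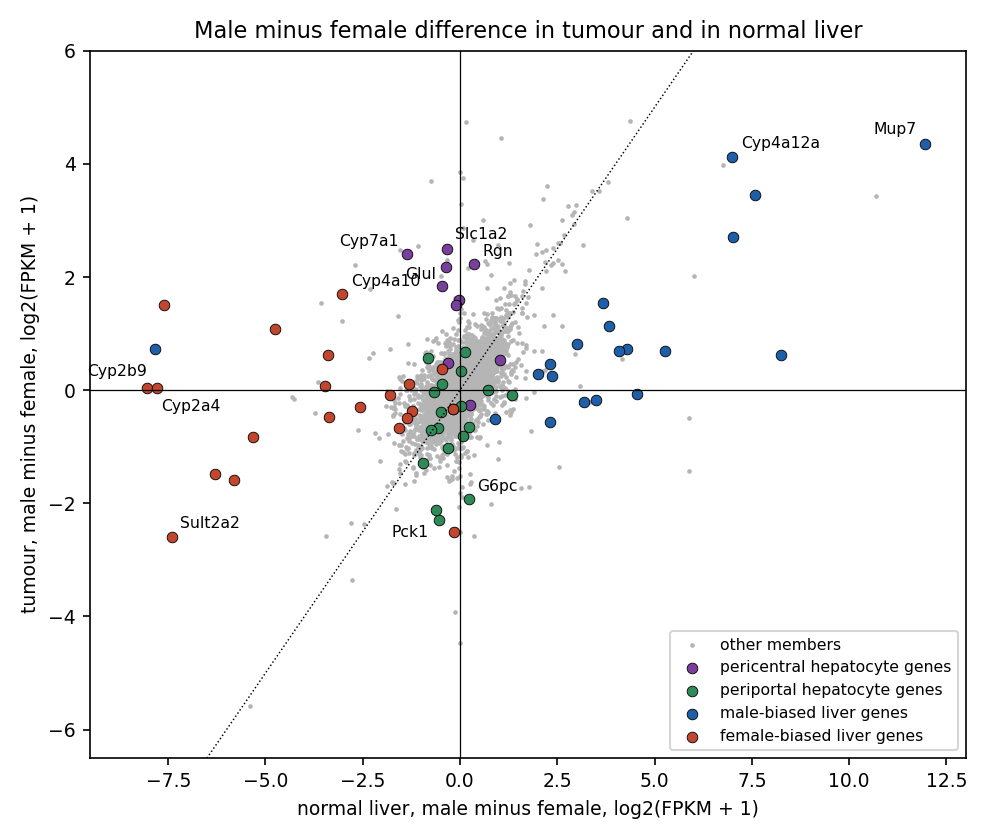
Male minus female difference in log2(FPKM + 1) in normal liver (x axis) and in tumour (y axis) for the 5168 members, with 4 gene lists in colour and a dotted line of equal difference. Pericentral genes such as Glul (-0.36 in normal liver, 2.18 in tumour) lie near 0 on the x axis and high on the y axis; sex-biased genes such as Mup7 (11.94 and 4.34) lie far out on the x axis and closer to 0 on the y axis.

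The 4 libraries outside the tumours allow a test that the choice of members did not use. edgeR's quasi-likelihood test of sex, with tissue as a covariate, had 1 residual degree of freedom and called 1998 of 10594 genes (18.9%) higher in males and 1911 (18%) higher in females at an adjusted p under 0.05. Of the 200 members higher in the male tumour, 192 were tested, 146 were called in the same direction and 9 in the other. Of the 122 higher in the female tumour, 101 were tested, 65 were called in the same direction and 0 in the other. Both shares were above the background shares of 18.9% and 18%. Those cover all tested genes, also ones under the FPKM limit of the members. The share called among all tested members was not computed, so the size of the excess cannot be read from this. Sex, age, depth and the counting of strands cannot be told apart in this test either.

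Genes that differed alike in all 3 pairs included those that mark sex. Ddx3y and Eif2s3y on the Y chromosome had 11.9 and 10.5 FPKM in the male tumour and 0 counts in the female tumour, at least 677-fold and 381-fold higher when the female library is set to a floor of 3 counts. Xist, the RNA that silences an X chromosome, had 0 counts in the male tumour and 46.7 FPKM in the female one, at least 2142-fold higher on the same floor. The tumour libraries therefore matched their labelled sex. Xist had 41.8 FPKM in each of the other female libraries, and 11.5% of its exonic sequence lies under Tsix.

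Other genes of this kind have no known tie to sex. Snx22, a sorting nexin, had 23.5, 23.1 and 32.4 FPKM in the male libraries and 0.18, 0.21 and 0.23 in the female ones, with 28.5% of its exonic sequence under Ppib. Fam221b had 9.70, 10.6 and 10.7 FPKM against 0.01, 0 and 0.01, with 10.7% under Gm12481. Ubb, a ubiquitin gene, had 13.3, 14.3 and 17.4 FPKM in the male libraries and 78.0, 68.7 and 93.8 in the female ones. H3f3c, a histone gene that the annotation types as a processed pseudogene, had 1.99 and 16.9 FPKM in the tumours and 0.81 and 18.6 in normal liver.

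The share of members apart varied with opposite-strand overlap and was highest for pseudogenes, with no test of the difference. Of the 49 members with over 50% of their exonic sequence under an opposite-strand exon, 10 (20.4%) were 2-fold higher in the male tumour against 2 in the female one. Of the 61 processed pseudogenes, 21 (34.4%) were higher in the male tumour, and 5 (8.20%) were higher in the female one. Of the 3640 members with no opposite-strand exon, 142 (3.90%) and 90 (2.47%) were. The shares were 1.97% and 1.87% for the 965 members with an overlap of up to 10%, lower than with none, and 5.57% and 2.19% for the 503 with an overlap of above 10 to 50%. The part of the counting of strands and of shared reads in these differences was not tested.

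The medians of the oxidative phosphorylation and ribosomal lists leaned the same way in all tissues. Of 24 oxidative phosphorylation genes, all members, 4 (Ndufa1, Cox5a, Cox6c and, except under TMM scaling, Ndufv2) were 2-fold higher in the male tumour against 0 in the female one, with medians of 0.36 in tumour, 0.39 in precancerous liver and 0.22 in normal liver. Ndufa1, a subunit of complex I, had 113, 82.1 and 86.1 FPKM in the male libraries and 21.8, 20.6 and 17.9 in the female ones. Of 25 ribosomal protein genes that were members, 5 were 2-fold higher in the male tumour against 0 in the female tumour (2 and 0 of the 22 at the limit in both, and 4 and 0 of the 25 under TMM scaling), with a median of 0.31 there and 0.41 in normal liver; Rps18 had 27.0 and 4.81 FPKM in the tumours and 22.4 and 4.11 in normal liver. Rpl29, a ribosomal protein gene outside that list, went the other way, with 24.6 FPKM in the male tumour against 78.7 in the female tumour and -1.64, -1.87 and -1.72 in tumour, precancerous and normal liver. Ribosomal protein genes have many near-identical pseudogenes, so these values are uncertain.

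Most of the RAS pathway was under 2-fold apart in the tumours. Hras had 3.28, 3.27 and 3.50 FPKM in the male libraries and 2.05, 2.22 and 2.84 in the female ones, below the limit; the sources used here do not say whether reads of the transgene are counted there. None of 11 RAS and ERK pathway members and none of 9 members among the feedback genes that ERK signalling turns on was 2-fold apart, but TMM scaling puts 1 in each past 2-fold in the female direction. These were Mapk3, the kinase ERK1, which went from -0.90 to -1.02, and Egr1, which went from -0.93 to -1.04. Dusp6, the ERK phosphatase, had 67.1 FPKM in the male tumour against 59.4 in the female one. Ccnd1 (cyclin D1), which drives entry into the cell cycle, had 41.4 and 27.7 FPKM, from 5.51 and 32.2 in normal liver, with 23.4% of its exonic sequence under an opposite-strand exon. Immediate early genes leaned to the female libraries in all tissues: 3 of 10 members (Nr4a1, Junb and Jund), and 2 of the 8 at the limit in both tumours, were 2-fold higher in the female tumour, with medians of -0.66, -0.63 and -0.86 in tumour, precancerous and normal liver; TMM scaling adds Egr1 and Ier2 to the 3. Jund has 52.6% of its exonic sequence under Gm11175.

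Cell division gave few members. Only 1 of 22 mitosis genes reached the limit, Ccnb2 with 2.47 FPKM in the male tumour against 5.17 in the female one, and 3 of 20 DNA replication genes. The summed FPKM of the 22 mitosis genes was 20.8 in the male tumour against 37.6 in the female tumour, against 4.19 and 7.51 in precancerous liver. Cdk4, which pairs with cyclin D, had 15.5 and 6.68 FPKM in the tumours, with 19.7% of its exonic sequence under an opposite-strand exon.

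Targets of NRF2, the regulator of the antioxidant response, were mostly lower in the male tumour. All 23 were members, 19 were lower in the male tumour, and 3 (Ephx1, Srxn1 and Hmox1) were 2-fold higher in the female tumour and 0 in the male one, with medians of -0.36 in tumour, -0.90 in precancerous liver and -0.15 in normal liver. Their summed FPKM was 3156 in the male tumour against 4316 in the female tumour, but 2061 against 1266 in normal liver. Srxn1, which repairs peroxiredoxins, had 77.4 and 164 FPKM in the tumours, from 9.03 and 20.5 in precancerous liver. Nqo1, a quinone reductase, had 53.9 and 66.4 FPKM, from 3.92 and 16.3, and Slc7a11, the cystine transporter, had 33.6 and 30.9, from 0.03 and 1.28. These 3 genes were higher in each tumour than in its precancerous liver. Hmox1, the heme oxygenase, was lower in each, with 5.75 and 12.7 FPKM, from 13.1 and 20.1.

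Acute phase, complement and clotting genes, which hepatocytes secrete into blood, split in both directions. Of 22 acute phase members, 4 (Saa2, Orm2, Lcn2 and Lbp) were 2-fold higher in the female tumour and 1, Steap4, in the male tumour, with medians of -0.10 in tumour and 0.66 in normal liver. Lbp, the lipopolysaccharide-binding protein, had 18.4, 18.1 and 9.46 FPKM in the male libraries and 23.4, 32.4 and 25.3 in the female ones. Steap4, a metalloreductase, had 56.7, 102 and 149 FPKM against 43.0, 58.2 and 65.8, so the male tumour was its highest library. Of 34 complement and coagulation members, 2 (C6 and C9, parts of the membrane attack complex) were higher in the male tumour, and 1, C1qc, was higher in the female tumour. C9 had 57.1 and 22.2 FPKM in the tumours, from 275 and 51.5 in normal liver, so it was higher in male libraries throughout.

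Glucose and fat metabolism beyond gluconeogenesis differed in single genes. The glycolytic enzymes Gapdh and Eno1 had 7.51 and 10.1 FPKM in the male tumour and 23.1 and 23.2 in the female tumour. Gapdh and Eno1 were also lower in male than in female normal liver, with 4.56 and 12.7 FPKM against 11.1 and 23.7. Both have many pseudogenes that may share their reads. Lpin1, a phosphatidate phosphatase, was the only 1 of 21 fatty acid synthesis members that was 2-fold apart, with 14.1 and 33.3 FPKM. Cebpb, a transcription factor of acute phase and gluconeogenic genes, had 56.8, 32.4 and 20.9 FPKM in the male libraries and 98.9, 60.0 and 49.3 in the female ones, with 20.7% of its exonic sequence under Tmem189.

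For 6 further lists no member was 2-fold apart in either direction on the deposited scale. They were the 20 members of the ATF4 and unfolded protein response, 19 apolipoprotein genes, 25 proteasome genes, 16 antigen presentation genes, 9 growth factor receptors and EGFR ligands and 6 YAP and TEAD pathway genes. TMM scaling puts Fgf21, which is on both the ATF4 and the growth factor list, at -1.05 and Tapbp, of antigen presentation, at -1.01, so those 3 lists then hold 1 member apart in the female direction. The antigen presentation median was -0.32 in the tumours and -1.12 in normal liver.

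**Figure D5:**
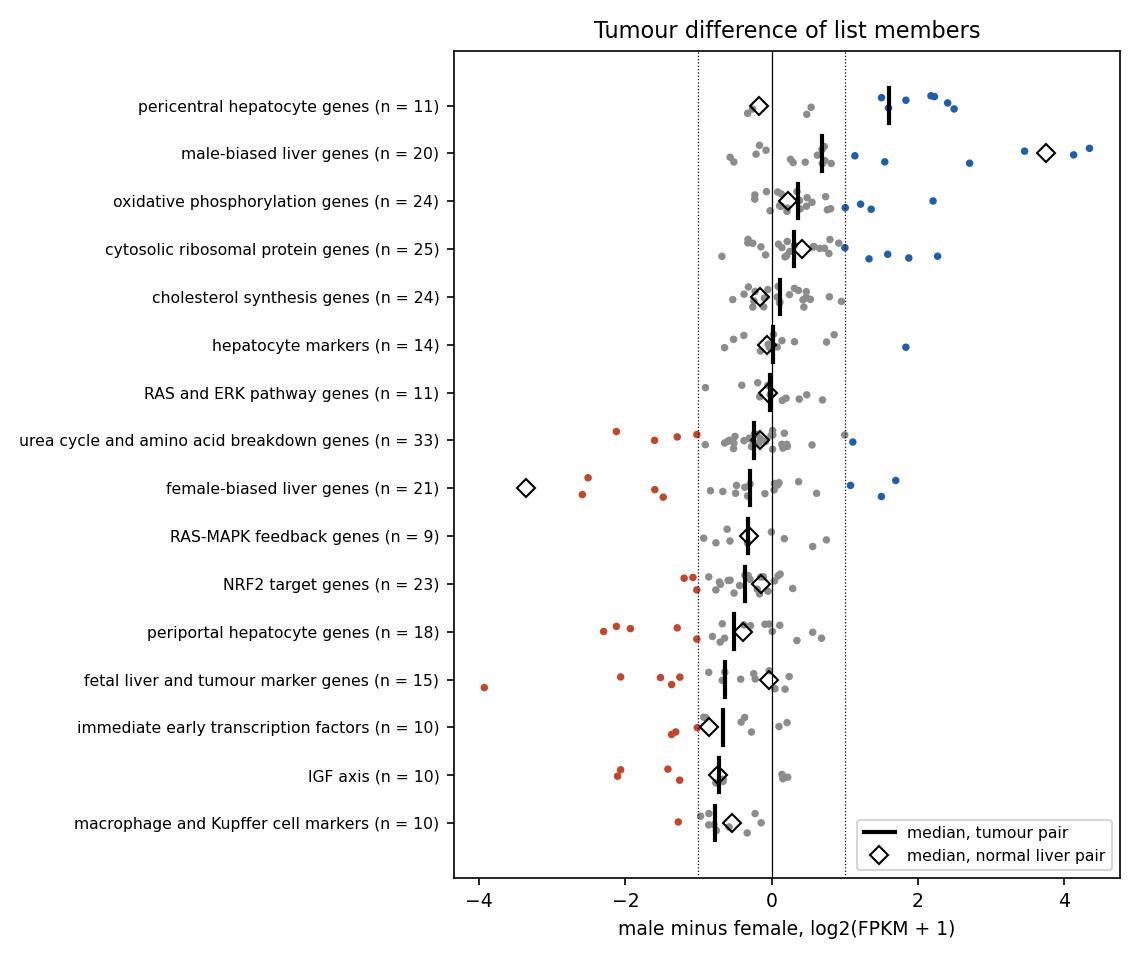
Male minus female tumour difference in log2(FPKM + 1) for the members of 16 gene lists, 1 point per gene (blue 2-fold or more higher in the male tumour, red likewise in the female tumour), with a black bar at the tumour median and an open diamond at the median in normal liver. The pericentral list has its tumour median at 1.60 and its normal liver median at -0.18, whereas for the sex-biased lists the diamond lies farther from 0 than the bar.

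Markers of other cell types gave the following levels. Of the macrophage and Kupffer cell markers, 10 were members, all 10 were lower in the male tumour and 1, C1qc, was 2-fold lower; the medians were -0.77 in tumour, -0.65 in precancerous and -0.54 in normal liver. Their summed FPKM over 16 listed genes was 216 in the male tumour against 352 in the female tumour, and 300 to 633 in the other 4 libraries. Stellate and matrix markers summed to 171 and 234 in the tumours, and 1 of 11 members, Timp1, was 2-fold higher in the female tumour, with 6.04 against 1.38 FPKM. Red blood cell markers summed to 69.1 and 95.7, and 2 of 5 members, the globin genes Hba-a1 and Hba-a2, were 2-fold higher in the female tumour, with 24.9 and 16.9 against 11.6 and 7.14 FPKM. The sums in the male and female tumour were 74.8 and 88.2 for endothelial markers and 338 and 292 for cholangiocyte markers. T and NK cell markers had no member and summed to 12.9 and 12.3, and neutrophil markers to 5.70 and 11.03. In bulk tissue, fewer cells of a type and less RNA per cell cannot be told apart, and the part of these cells in the other differences was not tested.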

How the data were processed

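RNA was sequenced from 6 mouse liver libraries. Per the labels' protocols, the library kit keeps strand. The submitters' processing notes name TopHat2 2.0.9, Cuffdiff, GRCm38 and mm10. The deposited table gives a raw count and an FPKM value (scaled by the authors to gene length and library total) for each gene in each library; all 12 value columns were used. Not given in the sources used here: how strand was set when reads were counted.

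Differences are log2(FPKM + 1) of the male minus the female library, with a pseudocount of 1, which understates changes of low genes. Folds are ratios of FPKM with exact 95% Clopper-Pearson intervals from counts. Sex was tested on the counts of the 4 non-tumour libraries with edgeR 4.0.16 (quasi-likelihood, TMM, tissue as covariate, R 4.3.3). The test covered genes that reached 1 FPKM in 2 or more of these libraries and was two-sided, with Benjamini-Hochberg adjustment. It was also run on simulated data without tissue differences, which cannot show how it behaves where the sex difference varies with tissue. DESeq2 1.42.0 and limma 3.58.1 were alternatives. With 1 library per group, the spread in the edgeR test comes from how the sex difference varied between normal and precancerous liver, and from other genes. Its p-values do not measure spread within a group. Exon overlaps come from GENCODE M21, of the same build.

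Members and the 52 gene lists were chosen with earlier results of these data known. Named genes are, per direction, the 12 largest tumour differences (FPKM of at least 5 on the higher side), the 8 largest among members under 1.5-fold apart in both other pairs, the 8 largest shared by all 3 pairs, genes whose order turned or whose difference vanished, list members with the largest differences and the most abundant genes; others named were chosen after their values were seen. Members of multigene families may share reads. The values of some genes are not reported here.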

Additional observations from a re-analysis of the deposited data

Results flagged for a closer look

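Of the 200 members higher in the male tumour, 11 were at least 2-fold higher in females in normal or precancerous liver, and of the 122 higher in the female tumour, 6 were at least 2-fold higher in males there; 12 of these members are given here. Each pair is 1 library against 1, so the change of direction was not tested.

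In 7 of them the male tumour was higher, with differences in log2(FPKM + 1) of 2.55 for Cyp2c37, 2.48 for Krt23, 2.41 for Cyp7a1, 2.22 for Cyp2c38, 1.79 for Serpina6, 1.70 for Cyp4a10 and 1.22 for Mt2. Serpina6, the carrier of corticosteroids in blood, had 59.5, 184 and 243 FPKM in the male libraries and 297, 580 and 69.6 in the female ones. Mt2, a metallothionein, has 73.5% of its exonic sequence under Gm45774.

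In 5 the female tumour was higher, with differences of -1.73 for Ncoa4, -1.71 for Orm2, -1.43 for Saa2, -1.37 for Lcn2 and -1.27 for Cxcl14. Orm2 and Saa2 are acute phase genes: Saa2 had 1658, 154 and 39.5 FPKM in the male libraries and 27.0, 63.8 and 108 in the female ones. Ncoa4, which delivers ferritin for breakdown, had 4.38, 0.86 and 0.92 FPKM against 0.82, 5.28 and 5.38, so male normal liver and the female precancerous and tumour libraries were the high ones.

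A gene left out by its name also stood out. RP23-267I20.3, which the annotation calls Gm42375 (chr7:26304421-26307286), had 269.8 FPKM in the male tumour, 0.22 and 9.93 in male normal and precancerous liver, and 2.77 to 4.19 in the female libraries. It overlaps Cyp2a4 on the opposite strand over 8.2% of its exonic sequence, and Cyp2a4 had 4678 FPKM in the male tumour against 4556 in the female tumour.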

How the results depend on the processing

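No member 2-fold apart in the tumours that the naming rule gives changed direction under TMM scaling or a pseudocount of 0.1. TMM scaling turned the sign of the median over all members (0.08 to -0.03), of 8 of 50 list medians and of 5 named genes near 0, among them Cyp2a4 (-0.08), Cyp2b9 (-0.09) and Trf (-0.12). With a pseudocount of 5, 113 members were higher in the male tumour against 52 in the female tumour. With an FPKM of at least 5 in both tumours, these counts were 102 and 67; 58 members in place of 115 were apart the same way in all 3 pairs, 28 in place of 64 were apart in the tumours alone, and 78 in place of 151 kept their normal liver difference. With an FPKM of at least 1 in either tumour, 314 members were higher in the male tumour, and without multigene families 133 were. limma-trend called 1196 genes higher in females outside the tumours, against 1911 with edgeR. Among other settings, leaving out genes overlapped on the opposite strand gave 162 and 109, keeping clone-named genes 209 and 122 (chosen after seeing the data), DESeq2 size factors 168 and 156, and a counting interval wholly past 2-fold 164 and 87. The pericentral count was 7 under each of the settings tried for it except 5 with the limit in both tumours, and the periportal count was 5, or 4 without overlapped genes. Of 102 named genes 2-fold apart, 99 were so after TMM scaling. TMM counts per list were added after seeing the data.

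With 1 library per group, leaving out a library removes the comparison, and the edgeR test has no residual degree of freedom left without any of its 4 libraries. No paired analysis was possible because the labels give no replicate numbers. The smaller depth of the male libraries limits genes at few counts: 3 counts are the floor used.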
